A study of Mus musculus with 2 samples.

Results

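The 6 genes that encode the NMDA receptor subunits listed here, Grin1, Grin2a, Grin2b, Grin2c, Grin2d and Grin3a, were followed across the cell types of the mouse hippocampus in a data set of 32285 annotated genes. They were chosen by name as members of the receptor family and were taken as raw UMI counts, a UMI being a molecular tag that marks 1 captured RNA molecule. Nuclear RNA was profiled by droplet-based single-nucleus sequencing with 3' end capture from 1 library of heterozygous Capza2 knockout mice (Capza2+/-) and 1 library of wild-type mice (WT). The labels give no age, sex or number of animals for either library, and they do not say which exon the knockout removes. Each genotype had 1 library, so no difference between genotypes has a replicate check, no p-value is given, and the intervals below are 95% intervals that cover counting error only.

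NMDA receptors are glutamate-gated cation channels that pass calcium, and in the hippocampus they are known for their part in synaptic plasticity. A receptor is built from obligatory GluN1 subunits, encoded by Grin1, joined by GluN2 subunits (Grin2a to Grin2d), which bind glutamate and set the kinetics and magnesium block of the channel, or by GluN3 subunits (Grin3a, Grin3b), which bind glycine and lower calcium permeability. In the forebrain, Grin2b is known to lead early in development and Grin2a to gain weight as synapses mature, so the proportion of Grin2a to Grin2b is a common description of receptor makeup.

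The libraries held 7801 Capza2+/- and 6512 WT barcodes with 62702888 and 58701532 UMIs, of which 6795 Capza2+/- and 6094 WT nuclei were kept, with medians of 5764 and 6663.5 UMIs per nucleus. The libraries shared 13 barcodes. Capza2 itself, the targeted gene, was at 67.86 CPM (UMIs per 1000000 UMIs of the nuclei summed) in all Capza2+/- nuclei, against 86.29 CPM in all WT nuclei, a log2 ratio of -0.35 (-0.41 to -0.28). Clusters were built with the members left out and were named from marker lists, and 14 classes reached 50 nuclei in both libraries. One of them, named from markers of the subiculum, the entorhinal cortex and the neocortex, is called the subicular or cortical class below. Excitatory clusters 6 and 12 were given no field name, but cluster 12 carried the CA1 list at 3336 CPM in Capza2+/- and 3041 CPM in WT nuclei. The CA1 pyramidal-like class carried it at 3707 CPM in Capza2+/- and 3406 CPM in WT nuclei. The principal cell fields of the labelled tissue were all present as classes, but the CA2 pyramidal-like class carried more of the CA3 list (2855 CPM in Capza2+/- and 2654 CPM in WT nuclei) than of the CA2 list (197.6 CPM in Capza2+/- and 173.1 CPM in WT nuclei). The choroid plexus list was higher in Capza2+/- nuclei in classes that should lack it, for example at 210.3 CPM in Capza2+/- and 79.56 CPM in WT dentate granule-like nuclei.

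All 6 genes lie on the minus strand of GRCm38, the build of the mm10 name given for the files. Grin1 (ENSMUSG00000026959) spans chr2:25291181-25319187 and overlaps the antisense gene Grin1os at chr2:25291220-25298925. Grin1os was counted as a gene of its own, at 8.207 CPM in Capza2+/- and 9.54 CPM in WT nuclei. Grin2a (ENSMUSG00000059003) spans chr16:9567898-9995560 and Grin2b (ENSMUSG00000030209) spans chr6:135713233-136173511, so both have long gene bodies, of 427.7 and 460.3 kb. Grin2c (ENSMUSG00000020734) is the shortest of the 6, at chr11:115249169-115267243 and 18.07 kb. Grin2d (ENSMUSG00000002771) lies at chr7:45831883-45878378 and Grin3a (ENSMUSG00000039579) at chr4:49661611-49845744. The files do not say whether intronic reads were counted, and the gene bodies differ in length, so levels are compared below between classes and libraries for 1 gene at a time.

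Promoters of only 3 of the 6 genes were available from RefSeq (GRCm38.p6), and these 3 are shown. Over cell types, Grin1 was in all neurons, Grin2c in astrocytes and Grin2d at its highest level in interneurons. A link between promoter letters and these patterns was not tested. Each run below holds the 250 bases before the RefSeq start, 5′ to 3′ on the minus strand. Capitals mark matches on either strand to GGGCGG, the GC box bound by Sp factors, and to GGACAG, which reads CTGTCC on the other strand and is the right part of the RE1 element bound by the neuronal gene repressor REST.
Grin1, chr2:25319188-25319437: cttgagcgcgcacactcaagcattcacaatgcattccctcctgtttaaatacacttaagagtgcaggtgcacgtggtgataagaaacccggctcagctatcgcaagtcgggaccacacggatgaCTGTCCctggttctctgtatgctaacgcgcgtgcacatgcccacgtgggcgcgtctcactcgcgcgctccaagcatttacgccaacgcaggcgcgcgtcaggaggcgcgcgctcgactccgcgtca
Grin2d, chr7:45866682-45866931: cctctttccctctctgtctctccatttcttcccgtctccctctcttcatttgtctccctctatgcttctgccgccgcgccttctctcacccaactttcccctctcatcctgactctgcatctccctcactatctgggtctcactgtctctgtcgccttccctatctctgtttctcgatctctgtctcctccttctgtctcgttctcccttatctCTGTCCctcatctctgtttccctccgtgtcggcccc
Grin2c, chr11:115267244-115267493: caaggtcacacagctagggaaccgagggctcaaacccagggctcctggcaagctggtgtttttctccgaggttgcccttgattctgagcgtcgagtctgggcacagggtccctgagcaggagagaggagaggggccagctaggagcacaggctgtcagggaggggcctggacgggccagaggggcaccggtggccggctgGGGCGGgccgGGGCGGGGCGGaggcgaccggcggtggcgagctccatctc
The Grin2c window had a GC content of 68.8% and 3 GC-box matches, of which the last 2 overlap. The Grin1 window had a GC content of 58.8% and 27 CpG dinucleotides, against a median of 6 over 32851 promoters. The Grin2d window had a GC content of 54.4% and 9 CpG. Both the Grin1 and the Grin2d windows held 1 match to GGACAG and none to GGGCGG. Among all promoters of the table, 32.74% held GGGCGG and 18.67% held GGACAG. The left part of RE1, TTCAGCACC, was in 0.3014% of promoters and in none of these 3. The RefSeq start of Grin2d lies inside the GENCODE gene. A match is a description of the letters and not a binding site.

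Grin1, the obligatory subunit, was the gene most evenly spread over neurons. CA1 pyramidal-like nuclei were at 436.3 CPM in Capza2+/- and 457.1 CPM in WT nuclei. Dentate granule-like nuclei were at 416.9 CPM in Capza2+/- and 431.2 CPM in WT nuclei, and CA3 pyramidal-like nuclei at 404.2 CPM in Capza2+/- and 428.8 CPM in WT nuclei. Excitatory cluster 6 had 414 CPM in Capza2+/- and 407.6 CPM in WT nuclei. CA1 had the highest value in each library, but the counting intervals of neighbouring classes overlapped in at least 1 library, and no order was read among these 4 classes. The 3 interneuron classes were lower than the 7 excitatory classes in each library, between 287.8 and 295.1 CPM in Capza2+/- and between 263.4 and 326.8 CPM in WT nuclei. Oligodendrocyte-like nuclei had the lowest level, 31.03 CPM in Capza2+/- and 37.87 CPM in WT nuclei, below the 71.06 and 67.91 CPM of Capza2+/- and WT microglia-like nuclei. Microglia stand here as a cell type that should lack these genes, and their values are given beside the others for that reason.

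Grin2a, the subunit that gives fast-closing channels, varied more over the neuronal classes than Grin1 did. Its level was 3928 CPM in Capza2+/- and 3581 CPM in WT CA1 pyramidal-like nuclei. Dentate granule-like nuclei were second, with 3176 CPM in Capza2+/- and 3407 CPM in WT. The interneuron classes lay at both ends of the neuronal range. Neurogliaform interneuron-like nuclei, led by Reln and Hapln1, had 3039 CPM in Capza2+/- and 2962 CPM in WT nuclei, below CA1 and the dentate only. Cck or Vip interneuron-like nuclei had the least Grin2a of any neuronal class, 930.4 CPM in Capza2+/- and 572.1 CPM in WT nuclei. Lhx6 interneuron-like nuclei, the class with Sst among its leading genes, stood between them at 1542 CPM in Capza2+/- and 1191 CPM in WT nuclei.

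Grin2b, the subunit with slower channels and a strong tie to CaMKII, covered a narrower range of neurons. It was again highest in CA1 pyramidal-like nuclei, at 3022 CPM in Capza2+/- and 2980 CPM in WT. Dentate granule-like, CA2 pyramidal-like and CA3 pyramidal-like nuclei lay together between 1998 and 2190 CPM in Capza2+/- and between 2043 and 2050 CPM in WT, and CA2 and CA3 changed places between the libraries. Neurogliaform interneuron-like nuclei had the lowest neuronal level, 1109 CPM in Capza2+/- and 1058 CPM in WT nuclei. The same class was thus near the top for Grin2a and at the bottom of the neurons for Grin2b. Cck or Vip interneuron-like nuclei, lowest of the neurons for Grin2a, lay within the neuronal range for Grin2b, at 1633 CPM in Capza2+/- and 1756 CPM in WT nuclei.

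Grin2c, a subunit known for weak magnesium block, was an astrocyte gene in these data. Astrocyte-like nuclei held 183.9 CPM (158.8 to 212) in Capza2+/- from 191 UMIs, and 204.8 CPM (174.4 to 238.8) in WT from 162 UMIs. No other class passed 1.903 CPM in Capza2+/- or 3.148 CPM in WT nuclei, and excitatory cluster 6, the neurogliaform interneuron-like class and the oligodendrocyte precursor-like class had no Grin2c UMI in either library. At least 1 Grin2c UMI was seen in 38.69% of Capza2+/- and 41.51% of WT astrocyte-like nuclei, which had medians of 2634.5 and 2687 UMIs. In microglia-like nuclei, with medians of 1464.5 and 1480 UMIs, the share was 0 of 316 in Capza2+/- and 0.4386% in WT. After each nucleus was thinned to 1000 UMIs, the astrocyte-like shares were 14.88% (11.25 to 19.14) in Capza2+/- and 19.32% (14.74 to 24.6) in WT. Thinning, here and below, left out nuclei under 1000 UMIs. They were 290 Capza2+/- and 106 WT of all nuclei kept, among them 24 Capza2+/- and 18 WT microglia-like nuclei.

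Grin2d, known in the forebrain chiefly from interneurons, was sparse and highest in the 3 interneuron classes. Cck or Vip interneuron-like nuclei had 48.7 CPM (36.78 to 63.24) in Capza2+/- and 38.3 CPM (28.24 to 50.78) in WT. Neurogliaform interneuron-like nuclei had 42.26 CPM in Capza2+/- and 34.57 CPM in WT, and Lhx6 interneuron-like nuclei had 23.14 CPM in Capza2+/- and 33.56 CPM in WT. The first 2 of these classes overlapped, and in WT nuclei the Lhx6 interval (27.5 to 40.55 CPM) overlapped that of the Cck or Vip class too. Oligodendrocyte precursor-like nuclei came next with 17.55 CPM in Capza2+/- and 10 CPM in WT, from 12 and 9 UMIs. The remaining classes stayed at or under 10.45 CPM in either library, and that value is the 5 UMIs of Capza2+/- microglia-like nuclei.

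Grin3a, the glycine-binding subunit, was highest outside the neurons. Oligodendrocyte precursor-like nuclei had 516.2 CPM (463.8 to 573) in Capza2+/- and 463.5 CPM (420.1 to 510.2) in WT. Lhx6 interneuron-like nuclei followed with 372.7 CPM in Capza2+/- and 303.6 CPM in WT. Mature oligodendrocyte-like nuclei were near the microglia-like level, at 9.893 CPM in Capza2+/- and 18.3 CPM in WT, where microglia-like nuclei had 10.45 CPM in Capza2+/- and 10.86 CPM in WT. At 1000 UMIs per nucleus, 39.59% (32.71 to 46.79) of Capza2+/- and 38.66% (31.77 to 45.9) of WT precursor-like nuclei carried a Grin3a UMI, against 0.6849% of Capza2+/- and 0.9524% of WT microglia-like nuclei. Before thinning, these shares were 73.74% in Capza2+/- and 78.68% in WT precursor-like nuclei, and 1.582% in Capza2+/- and 1.316% in WT microglia-like nuclei, at median depths of 3305.5 and 3312 UMIs for the precursor-like class.

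Among excitatory neurons Grin3a separated the fields. Nuclei of the subicular or cortical class had 145.8 CPM in Capza2+/- and 136.3 CPM in WT, CA1 pyramidal-like nuclei had 61.93 CPM in Capza2+/- and 70.09 CPM in WT, and CA3 pyramidal-like nuclei had 4.885 CPM in Capza2+/- and 3.626 CPM in WT. At least 1 Grin3a UMI was seen in 7.407% of Capza2+/- and 5.392% of WT CA3 pyramidal-like nuclei, which had medians of 16866 and 13386.5 UMIs, against 1.582% of Capza2+/- and 1.316% of WT microglia-like nuclei at far lower depth. The microglia-like levels rest on 5 UMIs in Capza2+/- and 4 UMIs in WT, and their intervals overlap those of CA3, so no order was read between the classes. At 1000 UMIs per nucleus, 0 of 216 Capza2+/- and 0 of 204 WT CA3 pyramidal-like nuclei had a Grin3a UMI, with exact binomial upper bounds of 1.693% in Capza2+/- and 1.792% in WT. Within CA1 the 2 clusters differed in both libraries. The cluster led by Dcn had 97.03 CPM in Capza2+/- and 111.4 CPM in WT, and the other had 42.24 CPM in Capza2+/- and 43.81 CPM in WT. Grin3b, the other GluN3 gene, had 11 UMIs in all Capza2+/- and 10 UMIs in all WT nuclei and was not followed further.

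**Figure D1:**
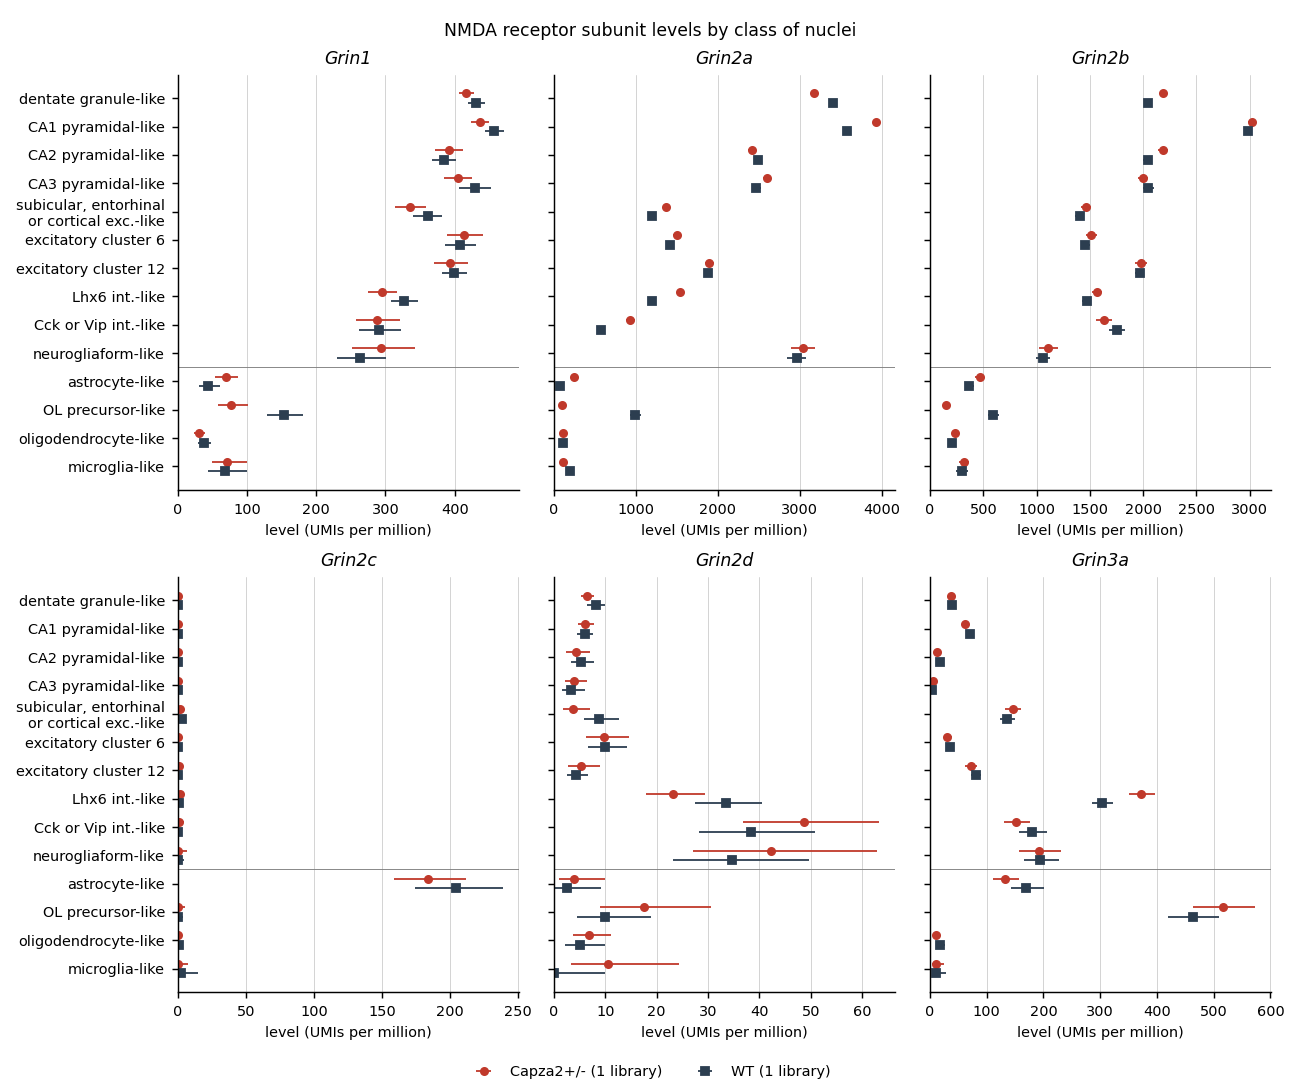
Level of each of the 6 genes (CPM, horizontal axes, 1 panel per gene) in 14 classes, with Capza2+/- above WT in each class and bars for 95% Poisson intervals of the counts. Grin2c stands out in astrocyte-like nuclei alone (183.9 CPM in Capza2+/-, 204.8 CPM in WT), Grin3a peaks in oligodendrocyte precursor-like nuclei, and Grin2a and Grin2b peak in CA1 pyramidal-like nuclei.

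As shares of the UMIs of the 6 genes together, which depend on how each gene is captured and are not shares of protein, Grin2a made up 51.0% in all Capza2+/- and 50.18% in all WT nuclei, and Grin2b 40.07% in Capza2+/- and 40.04% in WT. Grin1 gave 7.217% in Capza2+/- and 7.794% in WT. In neurogliaform interneuron-like nuclei Grin2a reached 64.98% in Capza2+/- and 65.64% in WT. In Cck or Vip interneuron-like nuclei Grin2b was the larger part, 53.5% in Capza2+/- and 61.9% in WT. Astrocyte-like nuclei were the class where Grin2c counted, with 16.7% in Capza2+/- and 23.62% in WT. Grin3a formed 59.53% of the members' UMIs in Capza2+/- and 20.98% in WT oligodendrocyte precursor-like nuclei, a gap that followed the Grin2a and Grin2b counts of this class and not its Grin3a level.

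Across all nuclei the Grin2a share of the Grin2a and Grin2b UMIs was 56.0% in Capza2+/- and 55.62% in WT. Behind this near equality the neuronal classes spread widely, from 73.26% in Capza2+/- and 73.67% in WT neurogliaform interneuron-like nuclei to 36.3% in Capza2+/- and 24.57% in WT Cck or Vip interneuron-like nuclei. Per kilobase of gene body, the first of these classes had a ratio of Grin2a to Grin2b of 2.949 in Capza2+/- and 3.012 in WT, and the second had 0.6132 in Capza2+/- and 0.3506 in WT. So 2 interneuron classes bracketed all the excitatory classes, and the principal cells lay between.

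Among excitatory classes the dentate granule-like nuclei had the highest Grin2a share in each library, 59.19% (58.85 to 59.52) in Capza2+/- and 62.43% (62.04 to 62.82) in WT. CA3 pyramidal-like nuclei had 56.52% in Capza2+/- and 54.68% in WT, and CA1 pyramidal-like nuclei had 56.52% in Capza2+/- and 54.58% in WT. CA2 pyramidal-like nuclei had 52.51% in Capza2+/- and 54.95% in WT. CA1, CA2 and CA3 overlapped between libraries and had no fixed order. Excitatory clusters 6 and 12 and the subicular or cortical class were near an even balance, from 48.36% to 49.84% in Capza2+/- and from 46.06% to 49.29% in WT. On which side of even they lay depended on the scale, since per kilobase of gene body their ratios of Grin2a to Grin2b ran from 1.008 to 1.07 in Capza2+/- and from 0.919 to 1.046 in WT.

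Single nuclei, which hold the same counts as the class sums, showed the same arrangement. Among nuclei with at least 10 UMIs of the pair, the median Grin2a share was 72.5% in Capza2+/- and 76.81% in WT neurogliaform interneuron-like nuclei, and 24% in Capza2+/- and 15.19% in WT Cck or Vip interneuron-like nuclei. The minimum left 79 of 90 Capza2+/- and 102 of 131 WT nuclei of the Cck or Vip class. It left 160 of 177 Capza2+/- and 195 of 231 WT nuclei of the Lhx6 class. Within the interneurons, nuclei of the Lhx6 and the Cck or Vip classes spread widely. Quartiles of the share ran from 17.65% to 54.94% in Capza2+/- and from 13.19% to 53.23% in WT Lhx6 interneuron-like nuclei. Over 50% of the pair's UMIs were Grin2a in 71.94% of Capza2+/- and 80.75% of WT dentate granule-like nuclei.

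**Figure D2:**
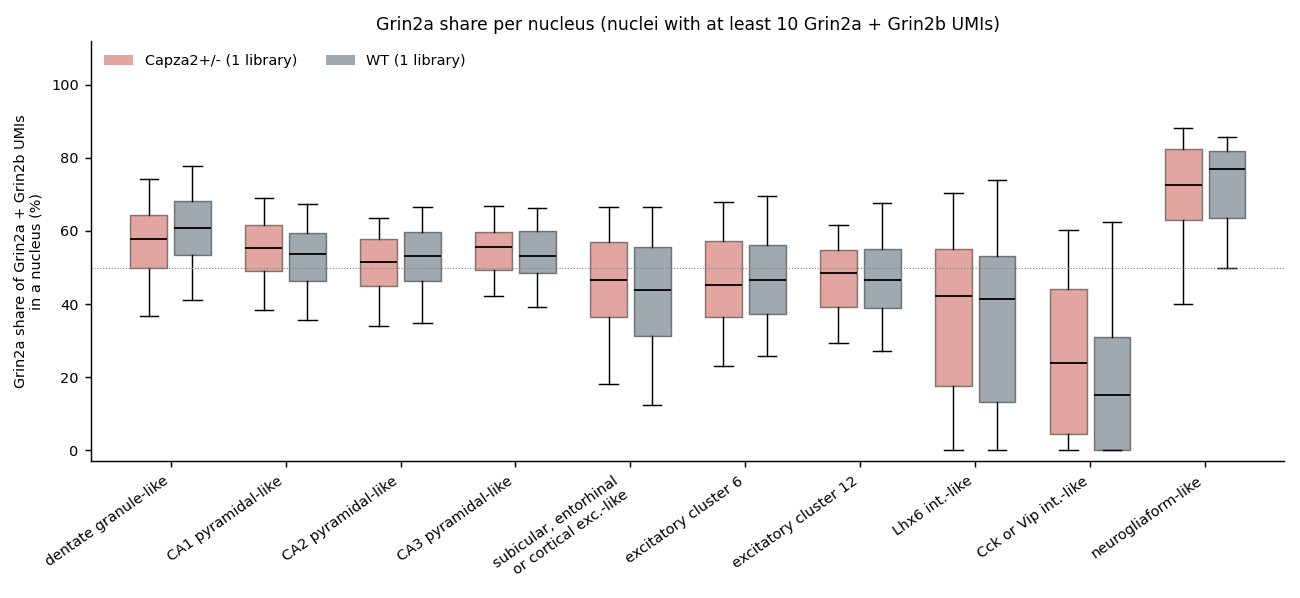
Grin2a share of Grin2a plus Grin2b UMIs in single nuclei (percent, vertical axis) for 10 neuronal classes, Capza2+/- left of WT in each pair; boxes give quartiles and the median, whiskers the 5th and 95th percentiles, and the dotted line an even balance. The medians run from 72.5% in Capza2+/- and 76.81% in WT neurogliaform interneuron-like nuclei down to 24% in Capza2+/- and 15.19% in WT Cck or Vip interneuron-like nuclei, and the boxes of the Lhx6 and the Cck or Vip classes are the tallest.

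When nuclei of at least 1000 UMIs were thinned to 1000 UMIs, both genes were still found together in 93.61% of Capza2+/- and 90.7% of WT CA1 pyramidal-like nuclei, and in 82.69% of Capza2+/- and 80.91% of WT dentate granule-like nuclei. In microglia-like nuclei this share was 2.74% in Capza2+/- and 2.857% in WT. In Cck or Vip interneuron-like nuclei Grin2b without Grin2a was the most frequent pattern at this depth, in 50% of Capza2+/- and 54.2% of WT nuclei. Before thinning, 73.33% of Capza2+/- and 63.36% of WT nuclei of that class had a Grin2a UMI. Both genes were found together in 24.44% of Capza2+/- and 23.66% of WT nuclei of that class. In neurogliaform interneuron-like nuclei Grin2a without Grin2b was seen in 24% of Capza2+/- and 30.67% of WT nuclei, and Grin2b without Grin2a in 12% of Capza2+/- and 8% of WT nuclei.

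The Grin2a share also moved with the depth of a nucleus. With the nuclei of each class of both libraries split together into 3 groups by UMI count, the deepest group had a larger Grin2a share than the shallowest in 20 of 20 combinations of 10 neuronal classes and 2 libraries, by 3.66 to 24.24 percentage points with a median of 7.525. Dentate granule-like nuclei had 53.77% in Capza2+/- and 58% in WT in the shallowest group, 57.79% in Capza2+/- and 60.55% in WT in the middle group, and 61.3% in Capza2+/- and 64.6% in WT in the deepest group. The share differed more between depth groups than between the libraries in most classes, so the comparison of genotypes below is also given within these groups. The groups hold different nuclei, and the part of depth itself in the share was not tested.

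**Figure D3:**
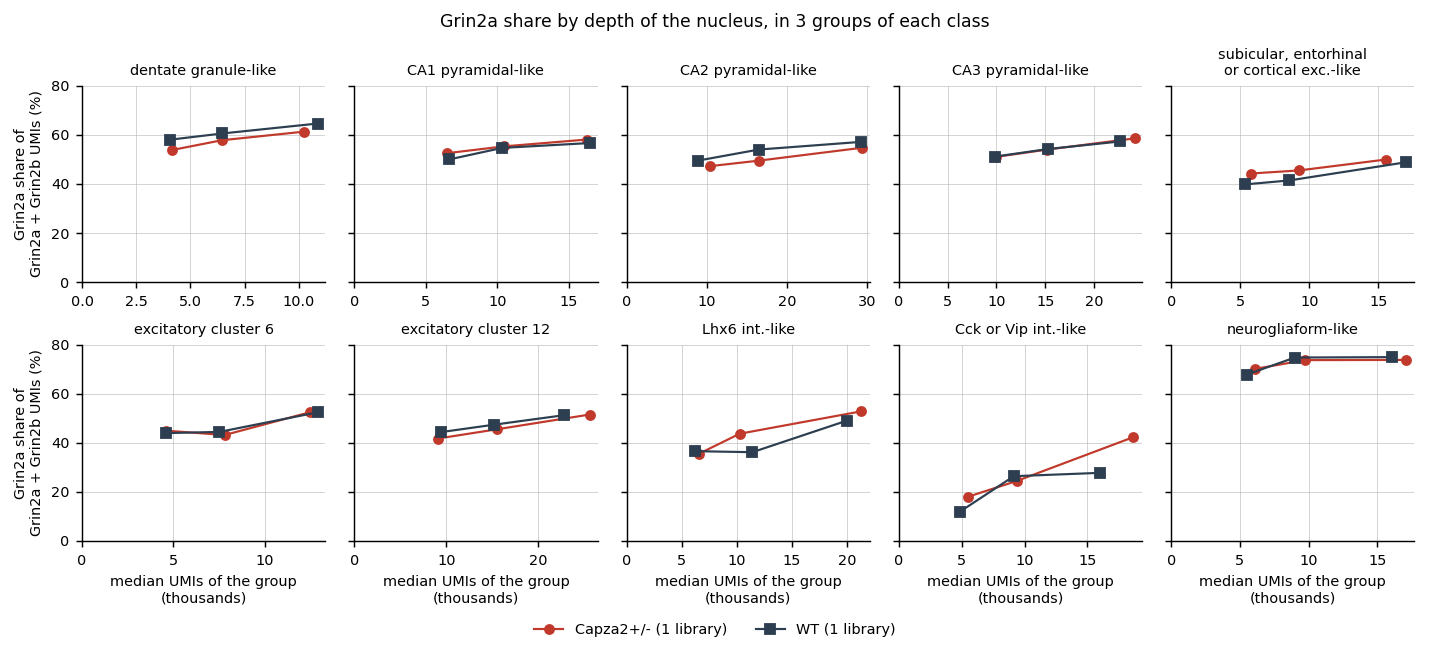
Grin2a share of Grin2a plus Grin2b UMIs (percent, vertical axes) against the median UMI count of 3 groups of nuclei split by depth (horizontal axes, in units of 1000 UMIs), in 10 neuronal classes with 1 line per library. The dentate granule-like share is lower in Capza2+/- than in WT nuclei in each depth group (53.77% and 58%, 57.79% and 60.55%, 61.3% and 64.6%), and the lines of CA3 pyramidal-like nuclei nearly coincide (51.02% and 51.11%, 53.95% and 54.2%, 58.57% and 57.3%).

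Between the libraries, the largest class differed downwards. The Grin2a share of dentate granule-like nuclei was lower in Capza2+/- than in WT nuclei, with a difference of -3.246 percentage points and a log2 odds difference of -0.20 (-0.23 to -0.17) from 2037 Capza2+/- and 1474 WT nuclei. It was below 0 in each depth group, at -0.25, -0.17 and -0.20 from the shallowest to the deepest, and in each of the 2 clusters of the class, at -0.17 and -0.16. The cluster makeup of the class differed, with 61.27% of its Capza2+/- and 43.83% of its WT nuclei in the larger cluster. Grin2a was lower, at 3176 CPM in Capza2+/- and 3407 CPM in WT nuclei, and Grin2b was higher, at 2190 CPM in Capza2+/- and 2050 CPM in WT nuclei. Within the 2 clusters the log2 ratio of Grin2a was -0.095 and -0.054, and that of Grin2b was 0.07 and 0.11. Summed dentate granule markers were 5618 CPM in Capza2+/- and 5820 CPM in WT nuclei, and their part in the difference was not tested.

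Pyramidal classes differed by less and not all one way. The log2 odds difference was 0.11 (0.08 to 0.14) in CA1 pyramidal-like nuclei, with Grin2a at 3928 CPM in Capza2+/- and 3581 CPM in WT. Within depth groups it was 0.15, 0.04 and 0.08, and the interval of the middle group held 0. In CA3 pyramidal-like nuclei it was 0.11 (0.04 to 0.17), but the interval held 0 in each of the 3 depth groups, and the Capza2+/- nuclei of this class were deeper, with a median of 16866 UMIs against 13386.5 UMIs in WT. With each library clustered separately the value was -0.0074, but no CA2 class was named in that setting. Its CA3 class held 394 Capza2+/- and 456 WT nuclei, against 216 and 204 in the main clustering. With each nucleus thinned to 1000 UMIs the CA3 value was 0.37, with a Grin2a share of 57.85% in Capza2+/- and 51.45% in WT. CA2 pyramidal-like nuclei differed the other way, by -0.14 (-0.20 to -0.08), but by 0.040 when each nucleus was thinned in the same way. By depth group it was -0.13 with an interval that held 0, -0.26 and -0.14. In the subicular or cortical class the difference was 0.13 (0.04 to 0.22), and it lay in the cluster led by Foxp2, with a Grin2a share of 42.76% in Capza2+/- and 37.6% in WT (0.31), while the other cluster differed by 0.01. By depth group the value of this class was 0.26, 0.24 and 0.06, where the first and the last interval held 0, and thinning turned it to -0.12. Thinned nuclei of this class held 0.9575 Grin2a and 1.387 Grin2b UMIs each in Capza2+/-, and 1.018 and 1.352 in WT. The thinned values of CA2, CA3 and this class have no interval here, and whether they differ from the full-depth values was not tested. The intervals of excitatory clusters 6 and 12 held 0.

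Cck or Vip interneuron-like nuclei had the widest neuronal difference, 0.81 (0.64 to 0.97), from 1070 Grin2a and 1878 Grin2b UMIs in 90 Capza2+/- nuclei and 717 Grin2a and 2201 Grin2b UMIs in 131 WT nuclei. By depth group the log2 odds difference was 0.71, -0.15 and 0.93, and the interval of the middle group held 0. Markers of excitatory neurons were also higher in this class, at 522.6 CPM in Capza2+/- and 403.8 CPM in WT nuclei with 8 of 8 and 7 of 8 genes detected, and so were dentate granule markers, at 929.6 CPM in Capza2+/- and 664.7 CPM in WT nuclei. Without nuclei of over 3 times the class median, the difference was 0.68, with a Grin2a share of 34.28% in Capza2+/- and 24.57% in WT. The part of the other cells' RNA in this difference was not tested.

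Lhx6 interneuron-like nuclei differed by 0.28 (0.20 to 0.37), but a few deep nuclei carried much of it. One Capza2+/- nucleus with 328355 UMIs held 1116 Grin2a and 636 Grin2b UMIs, 25.77% of the Grin2a UMIs of its class. Without the deep nuclei the shares were 44.42% in Capza2+/- and 41.93% in WT and the log2 odds difference was 0.15. By depth group it was -0.06 with an interval that held 0, 0.45 and 0.22, and with doublets kept it was 0.0086. Oligodendrocyte markers were at 319.7 CPM in Capza2+/- and 121.1 CPM in WT nuclei of this class. Excitatory neuron markers were at 593.4 CPM in Capza2+/- and 436.6 CPM in WT nuclei, and CA1 markers at 893.5 CPM in Capza2+/- and 676.2 CPM in WT nuclei. The 11 deep Capza2+/- nuclei had 86.27 excitatory marker UMIs per nucleus and a doublet score of 0.1053, against 4.325 and 0.04672 in the rest. The 10 deep WT nuclei had 46.2 and 0.1266, against 4.208 and 0.0507 in the rest. The part of other cells' RNA in this difference was not tested. Neurogliaform interneuron-like nuclei had an interval that held 0, -0.03 (-0.20 to 0.14).

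In astrocyte-like and oligodendrocyte precursor-like nuclei a few deep nuclei carried most of the Grin2a UMIs of 1 library. Astrocyte-like nuclei had 247.5 CPM of Grin2a in Capza2+/- and 78.36 CPM in WT. Of the Capza2+/- UMIs, 65.76% came from 8 deep nuclei, and without deep nuclei the level was 96.12 CPM in Capza2+/- and 78.92 CPM in WT. These values were below the 117 CPM of Capza2+/- and 165.5 CPM of WT microglia-like nuclei under the same restriction. At least 1 Grin2a UMI was seen in 23.21% of Capza2+/- and 20.38% of WT astrocyte-like nuclei, and in 15.82% of Capza2+/- and 21.93% of WT microglia-like nuclei, at the depths given above. Oligodendrocyte precursor-like nuclei had 103.8 CPM of Grin2a in Capza2+/- and 991.5 CPM in WT. Here 14 deep WT nuclei carried 71.64% of the Grin2a UMIs. These deep nuclei had 16.07 excitatory marker UMIs per nucleus and a doublet score of 0.1174, against 3.492 and 0.02382 in the other WT nuclei. Over the whole class, excitatory neuron markers were at 1233 CPM in Capza2+/- and 960.4 CPM in WT nuclei. CA3 markers were at 764.8 CPM in Capza2+/- and 718.1 CPM in WT nuclei. Dentate granule markers were at 2324 CPM in Capza2+/- and 3224 CPM in WT nuclei, and CA1 markers at 201.8 CPM in Capza2+/- and 310.1 CPM in WT. Without deep nuclei the levels were 84.84 CPM in Capza2+/- and 382.2 CPM in WT. The part of neuronal RNA in this difference was not tested. Of the WT Grin3a UMIs of the same class, the deep nuclei held 9.113%, and the Grin3a level was within 1.5-fold between the libraries. Without deep nuclei Grin3a was at 522.5 CPM in Capza2+/- and 572.6 CPM in WT. Its log2 ratio went from 0.16 to -0.13, with intervals that held 0. Oligodendrocyte-like nuclei had 115.1 CPM of Grin2a in Capza2+/- and 110.4 CPM in WT, with intervals that overlapped. In microglia-like nuclei the Grin2a share of the pair was 27.05% in Capza2+/- and 39.44% in WT, a log2 odds difference of -0.81 (-1.46 to -0.16), so the class that should lack these genes differed between the libraries too.

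**Figure D4:**
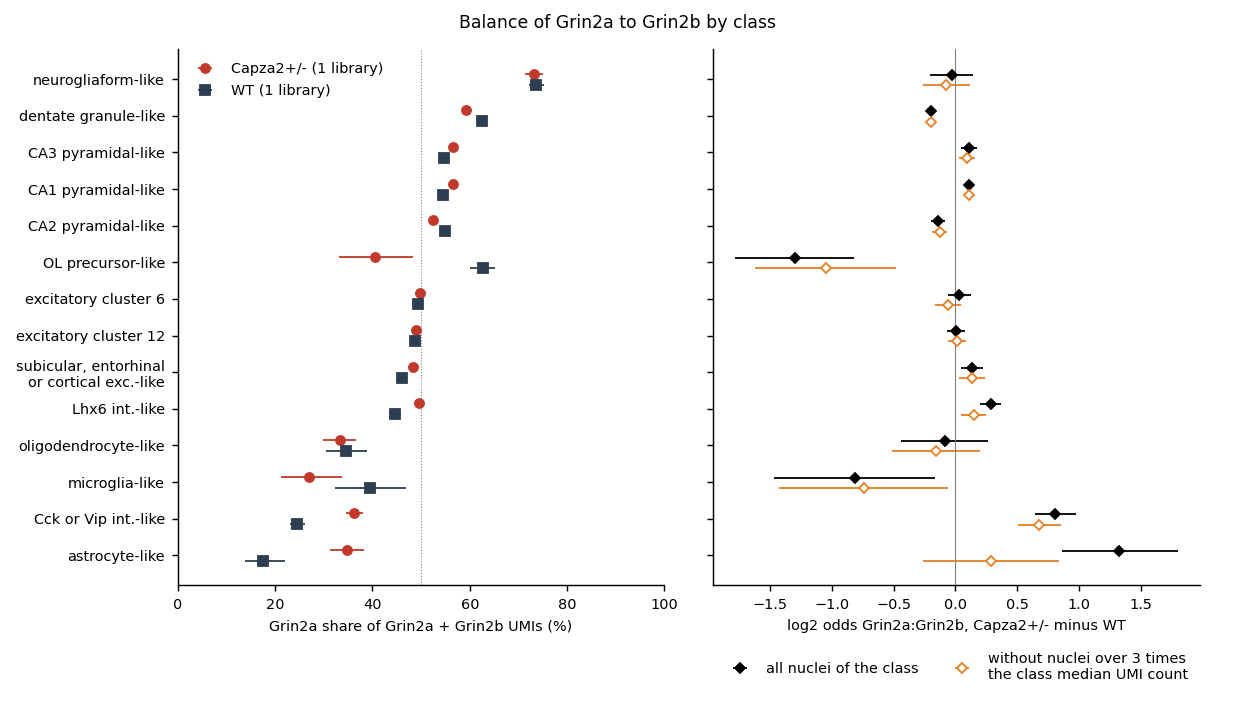
Left, Grin2a share of Grin2a plus Grin2b UMIs (percent) in 14 classes with 95% binomial intervals and a dotted line at an even balance. Right, log2 odds difference of Capza2+/- minus WT with its counting interval, for all nuclei (black) and without nuclei of over 3 times the class median UMI count (orange). Of the 14 differences 6 lie above 0, 4 below 0 and 4 have intervals that hold 0; the astrocyte-like value of 1.32 becomes 0.29 without the deep nuclei.

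A level ratio between libraries was called past the fold threshold where it was at least 1.5 or at most its inverse, among genes whose UMIs from Capza2+/- and WT nuclei summed to 200 or more. In all nuclei together 0 of 6 members were past it, where 1.35% of 14460 genes were. The members' log2 ratios there were -0.06 for Grin1, 0.08 for Grin2a, 0.05 for Grin2b, 0.12 for Grin2c with an interval that held 0, -0.20 for Grin2d and -0.18 for Grin3a. With nuclei thinned to 1000 UMIs the signs of Grin2a and Grin2b turned, to -0.026 and -0.022. The sums over all nuclei mix classes in different proportions, with 2037 Capza2+/- and 1474 WT dentate granule-like nuclei and 317 Capza2+/- and 437 WT interneuron nuclei. Grin3a was higher in 3 and lower in 6 of the 9 classes where it reached the UMI minimum. In the sum of the 3 interneuron classes its log2 ratio was 0.19. In dentate granule-like nuclei 0 of 4 members were past the threshold, with 0.858% of all genes. The same count was 0 of 4 in CA1 pyramidal-like nuclei, with 0.917% of genes, and 0 of 3 in CA3 pyramidal-like nuclei, with 0.999% of genes. It was 0 of 3 in excitatory cluster 6, with 1.14% of genes, and 0 of 4 in the subicular or cortical class, with 1.57% of genes. In the sum of the 3 interneuron classes it was 0 of 5, with 1% of genes. In glia it was 0 of 2 in oligodendrocyte-like nuclei, with 0.851% of genes, 0 of 1 in microglia-like nuclei, with 3.24% of genes, and 1 of 4 in astrocyte-like nuclei, with 3.32% of genes. That 1 member was Grin2a, whose level without deep nuclei is given above. With members so few and so small a share of genes called, these counts did not set the members apart from other genes.

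The same was counted in the classes under 200 nuclei in a library. In Cck or Vip interneuron-like nuclei 1 of 4 members was past it, with 3.23% of genes, namely Grin2a with a log2 ratio of 0.70 (0.56 to 0.84). In oligodendrocyte precursor-like nuclei 2 of 3 members were past it, with 13.1% of genes, the largest share of the 14 classes. They were Grin2a, with -3.26 (-3.63 to -2.91), and Grin2b, at 152.1 CPM in Capza2+/- and 591.4 CPM in WT. The count was 0 of 3 in CA2 pyramidal-like nuclei, with 2.19% of genes, 0 of 4 in excitatory cluster 12, with 1.81% of genes, 0 of 4 in Lhx6 interneuron-like nuclei, with 1.55% of genes, and 0 of 4 in neurogliaform interneuron-like nuclei, with 2.7% of genes. Grin1, Grin2c and Grin3a were past it in none of the 10, 1 and 9 classes in which they reached the UMI minimum, and Grin2d reached it in no single class. Below the class level, Grin3a in the Foxp2 cluster was at 133.9 CPM in Capza2+/- and 73.27 CPM in WT, a log2 ratio of 0.87 (0.48 to 1.27). The neighbouring Tshz2 cluster of the same class had 152.7 CPM in Capza2+/- and 180.6 CPM in WT.

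**Figure D5:**
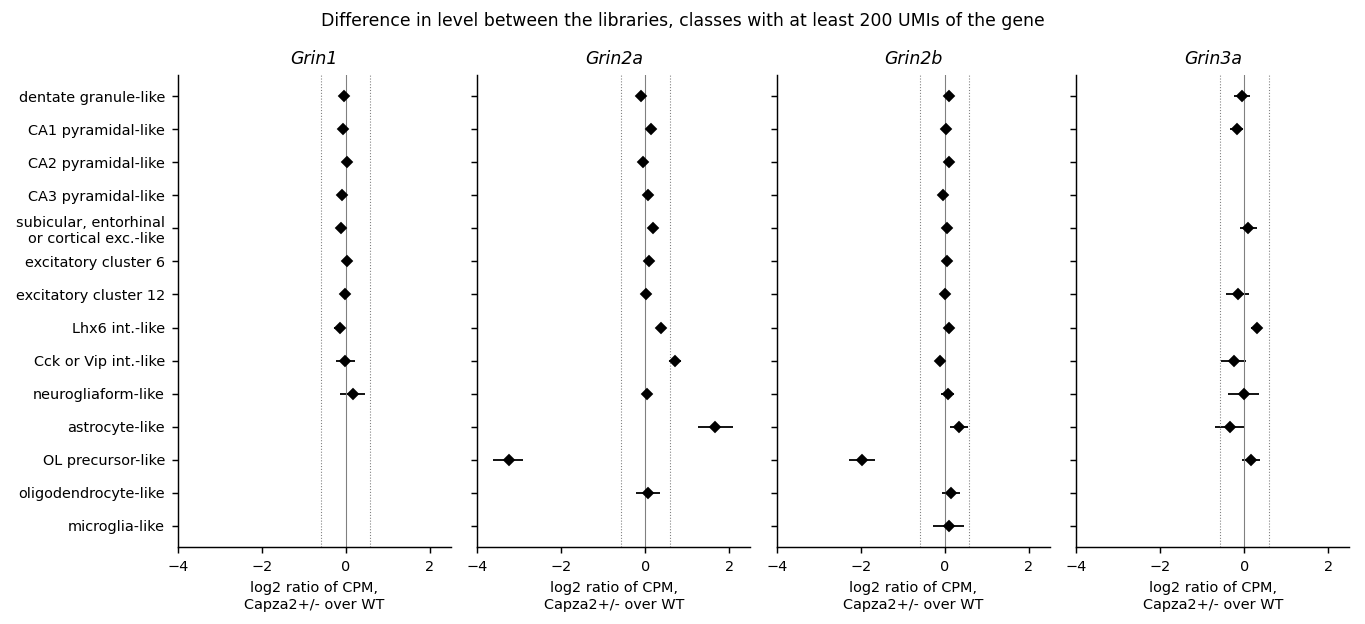
Log2 ratio of CPM, Capza2+/- over WT, for Grin1, Grin2a, Grin2b and Grin3a in each class where the gene reached the UMI minimum of 200, with 95% counting intervals; dotted lines mark the 1.5-fold threshold. Most points lie inside the lines, and those outside are Grin2a in Cck or Vip interneuron-like (0.70), astrocyte-like (1.66) and oligodendrocyte precursor-like nuclei (-3.26), and Grin2b in oligodendrocyte precursor-like nuclei (-1.96).

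The wider NMDA receptor list held 47 genes. They were Grin3b and genes for D-serine and glycine handling, scaffolds, auxiliary and cytoskeletal partners, kinases, phosphatases, downstream signalling and transcription regulators known for Grin promoters. In all nuclei 45 of them reached the UMI minimum and 0 were past the fold, with a median log2 ratio of -0.02 over the list and -0.01 over all genes. In dentate granule-like nuclei 0 of 38 were past it, and in CA1 pyramidal-like nuclei 0 of 37. CA3 pyramidal-like nuclei had 1 of 30, with 0.999% of all genes. This was Lin7a, a small scaffold protein that links receptors to kinesin transport, at 86.22 CPM in Capza2+/- and 55.04 CPM in WT (0.65, 0.38 to 0.92). Astrocyte-like nuclei had 2 of 11, with 3.32% of all genes. They were Dlg2, a postsynaptic scaffold, at 683.8 CPM in Capza2+/- and 300.8 CPM in WT, and Camk2a, the kinase that binds GluN2B, at 140.6 CPM in Capza2+/- and 69.51 CPM in WT. In these nuclei markers of excitatory neurons were at 944.8 CPM in Capza2+/- and 759.6 CPM in WT. CA1 markers were at 236.9 CPM in Capza2+/- and 161.8 CPM in WT. Dentate granule markers were at 2375 CPM in Capza2+/- and 2524 CPM in WT, and CA3 markers at 1722 CPM in Capza2+/- and 1742 CPM in WT. The 8 deep Capza2+/- nuclei of this class held 13.62 excitatory marker UMIs per nucleus, against 2.659 in its other Capza2+/- nuclei. The part of neuronal RNA in these differences was not tested. None was past the fold in excitatory cluster 6 (0 of 29), subicular or cortical (0 of 28), oligodendrocyte-like (0 of 24) or microglia-like nuclei (0 of 4). The sum of the 3 interneuron classes had 0 of 36. Among classes under 200 nuclei in a library, Cck or Vip interneuron-like nuclei had 1 of 20, Lin7a, lower in Capza2+/- (3.23% of genes). Neurogliaform interneuron-like nuclei had 1 of 12, Neto1, also lower (2.7% of genes). Oligodendrocyte precursor-like nuclei had 1 of 15 higher and 4 lower, with 13.1% of genes (Camk2a, Fyn, Ppp3ca, Rasgrf1 and Kalrn). CA2, Lhx6 and cluster 12 nuclei had none.

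Partners of the receptor also varied over the classes. Camk2a was at 974.6 CPM in Capza2+/- and 1018 CPM in WT CA1 pyramidal-like nuclei, and at 356.7 CPM in Capza2+/- and 348.4 CPM in WT Lhx6 interneuron-like nuclei. Neto1, an auxiliary protein of NMDA and kainate receptors, was highest in CA3 pyramidal-like nuclei, with 1097 CPM in Capza2+/- and 1072 CPM in WT, where CA1 pyramidal-like nuclei had 183.4 CPM in Capza2+/- and 181.6 CPM in WT. Neto1 differed between libraries in CA2 pyramidal-like nuclei, at 522.5 CPM in Capza2+/- and 694.1 CPM in WT (-0.41). It differed the other way in Cck or Vip interneuron-like nuclei, at 907.8 CPM in Capza2+/- and 640 CPM in WT (0.50). Dlg4, which encodes the scaffold PSD-95, was at 53.52 CPM in all Capza2+/- and 59.09 CPM in all WT nuclei (-0.14). Srr, the enzyme that makes D-serine, was at 66.84 CPM in Capza2+/- and 73.37 CPM in WT dentate granule-like nuclei, and at 63.56 CPM in Capza2+/- and 59.4 CPM in WT astrocyte-like nuclei.

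The genes whose levels over the classes were most like a member were ranked by Pearson's r of log2(CPM + 1) over 28 points, 1 per class and library, among 14460 genes. The points share libraries and broad neuron and glia differences, so r is a description only. Grin2a was most like Kcnj6 (r = 0.97), which encodes a G protein-gated potassium channel. Grin2c was most like Cyp4f15 (r = 0.96) and also followed Slco1c1 and Gli3, genes that led the astrocyte-like cluster. Grin2d had no gene as close, with Col26a1 first at r = 0.84, and Grin3a had Ptpn4 first at r = 0.88. Among the members, Grin1, Grin2a and Grin2b varied together, with r between 0.92 and 0.95. Grin2d and Grin3a had an r of 0.57, and Grin3a with Grin1 had an r of 0.03.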

How the data were processed

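Hippocampal nuclei were isolated from frozen tissue and sequenced with the 10x Genomics 3' v3 chemistry, per the labels' protocols. The authors' deposited matrices hold whole-number UMI counts per gene and barcode, made with Cell Ranger 7.1.0 per the file headers. The build, mm10, is named in the submitters' processing notes. The sources used here do not say whether introns were counted. Nuclei with at least 500 genes and at most 5% mitochondrial UMIs were kept, which removed 7.563% of Capza2+/- and 1.351% of WT barcodes.

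Doublets were scored with Scrublet in scanpy 1.11.5. Its automatic threshold marked 0 Capza2+/- and 609 WT nuclei and had not worked in the first library, so the highest scores were removed at the expected rate in both, 416 Capza2+/- (5.769%) and 330 WT nuclei (5.139%). Both libraries were clustered together (2000 variable genes without the members, 30 principal components, 15 neighbours, Leiden resolution 1, leidenalg 0.10.2), giving classes named from fixed marker lists. Clusters of 291 Capza2+/- and 247 WT nuclei that had no marker name or repeated a larger cluster's name, with a mean doublet score at least 2 times that of all nuclei, were set apart from the classes. They, the unnamed clusters and the classes under 50 nuclei entered the sums over all nuclei only.

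UMIs were summed per class and library and scaled to 1000000 per class (CPM). Shares have Clopper-Pearson intervals, levels have Poisson intervals and ratios have conditional binomial intervals (scipy 1.17.1). Odds intervals were exact up to 10000 UMIs and used the normal approximation above that. PCR duplicates are removed by the UMIs, but nuclei are not replicates, and all intervals and floors cover counting error only. Fold calls used genes with at least 200 UMIs. The scripts were tested on simulated data. Gene positions came from GENCODE M21 (32158 of 32285 IDs matched).

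The members, the wider receptor list and the marker lists were chosen with earlier results of these data known. Named were the 6 members in each class, the genes of the wider list past 1.5-fold in the 14 classes, and Dlg4, Srr, Camk2a and Neto1. Alternatives changed the doublet removal, gene minimum, depth, weighting, clustering, background, scaling and UMI minimum. The depth groups, the fold counts in smaller classes, the levels of single clusters and the restriction to nuclei without deep ones were added after the data were seen. The ranking of genes by their likeness to Grin1 is not reported here.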

Additional observations from a re-analysis of the deposited data

Results flagged for a closer look

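The Grin2a to Grin2b balance differed in opposite directions between classes, by an interval that covers counting error and with 1 library per genotype, so whether the classes themselves differ was not tested. As log2 odds of Capza2+/- minus WT, it was higher in Cck or Vip interneuron-like (0.8065), Lhx6 interneuron-like (0.2843), subicular or cortical (0.1332), CA1 pyramidal-like (0.1132), CA3 pyramidal-like (0.1073) and astrocyte-like nuclei (1.323). It was lower in dentate granule-like (-0.1966), CA2 pyramidal-like (-0.1414) and oligodendrocyte precursor-like nuclei (-1.296). Microglia-like nuclei, which should lack both genes, had -0.81. The dentate granule-like value kept its sign in each of 3 depth groups of nuclei, the CA3 pyramidal-like intervals held 0 in each group, and the astrocyte-like value was 0.29 without deep nuclei.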

How the results depend on the processing

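No paired analysis was possible because each genotype had 1 library. Of the Grin2a to Grin2b log2 odds (Capza2+/- minus WT), 98 alternative values were not counted as changed, 23 moved and 7 changed sign. Log2 odds listed as moved lay outside the counting interval of the main value. The counting error of the alternative was left out, so its own interval can still hold the main value. The larger dentate cluster alone, for example, had -0.17 (-0.22 to -0.11), which holds the class value of -0.20. Thinned values rest on few UMIs per nucleus. Of the level ratios 453 kept, 88 moved and 18 changed sign. Where no reason is given, the cause was not tested. Grin2a shares of Capza2+/- and WT nuclei did not overlap over the settings tried in dentate granule-like nuclei (57.42 to 59.72% in Capza2+/-, 60.17 to 62.89% in WT) or in Cck or Vip interneuron-like nuclei (29.72 to 38.68% in Capza2+/-, 18.57 to 27.52% in WT).

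Log2 odds that changed sign were, with nuclei thinned to 1000 UMIs, 0.040 in CA2 pyramidal-like, -0.12 in subicular or cortical and -0.0033 in all nuclei. With each library clustered separately they were -0.57 in astrocyte-like and -0.0074 in CA3 pyramidal-like nuclei. That CA3 class held 394 Capza2+/- and 456 WT nuclei, and no CA2 class was named. With the microglia-like level subtracted the value was 1.01 in oligodendrocyte precursor-like nuclei, and with every nucleus weighted alike it was -0.049 in all nuclei. Thinning moved the values to 0.063 in CA1, 0.37 in CA3, 0.19 in Lhx6, 0.61 in astrocyte-like, -0.16 in dentate, 0.18 in cluster 6 and -0.23 in neurogliaform nuclei. Weighting nuclei alike moved them to 0.63 in Cck or Vip, 0.17 in Lhx6, 0.20 in astrocyte-like and -0.43 in precursor-like nuclei. Keeping doublets gave 0.0086 in Lhx6, -0.34 in precursor-like and 0.048 in all interneuron-like nuclei. The automatic doublet threshold, which removed nuclei from the WT library at a higher rate, gave 0.69 in Lhx6, 0.15 in cluster 6 and 0.40 in all interneuron-like nuclei. Without deep nuclei the values were 0.15 in Lhx6, 0.29 in astrocyte-like and -0.061 in cluster 6. The largest cluster alone gave -0.17 in dentate, 0.010 in subicular or cortical and 0.28 in all interneuron-like nuclei.

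Level ratios (log2) that changed sign were small in most classes. For Grin2a in CA2 they were 0.0021 with doublets kept, 0.0095 with the automatic threshold, 0.075 thinned, 0.012 weighted alike and 0.00035 with the median gene at 0. For Grin3a in CA1 they were 0.14 clustered separately and 0.024 weighted alike, and for Grin1 in Lhx6 nuclei 0.12 thinned. In astrocyte-like nuclei separate clustering gave -0.69 for Grin2a and -0.13 for Grin2b, and leaving out deep nuclei gave -0.0017 for Grin2b. Leaving them out gave -0.029 for Grin2a in cluster 6 and -0.0047 for Grin2b in all interneuron-like nuclei. Thinning gave -0.088 for Grin2a in subicular or cortical nuclei. In all nuclei Grin2a was -0.026 thinned and -0.059 weighted alike, and Grin2b was -0.022 thinned and -0.043 weighted alike. Other values for all nuclei that moved were Grin1 at -0.16 thinned and -0.16 weighted alike, Grin2d at -0.60 with the microglia-like level subtracted, and Grin3a at -0.28 weighted alike.

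Genes past 1.5-fold after thinning, which leaves fewer genes at the UMI minimum, numbered 7 in CA1, 3 in CA3, 4 in astrocyte-like, 29 in dentate, 4 in cluster 6, 3 in microglia-like, 16 in oligodendrocyte-like, 1 in subicular or cortical and 4 in all interneuron-like nuclei. With a minimum of 50 UMIs, which admits genes with wider counting error, they numbered 495 in CA1, 565 in CA3, 590 in astrocyte-like, 488 in dentate, 620 in cluster 6, 422 in microglia-like, 494 in oligodendrocyte-like, 587 in subicular or cortical, 529 in all interneuron-like and 665 in all nuclei. Others were 19 in astrocyte-like nuclei without deep ones, 14 and 15 in microglia-like nuclei with the automatic threshold and with at least 1000 genes, 185 in all interneuron-like nuclei with the automatic threshold, and 483 in all nuclei weighted alike.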

Other observations

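Choroid plexus epithelium-like nuclei, led by Ttr and Htr2c and too few for the class comparisons, carried Grin2b at 1568 CPM (1454 to 1688) in 61 Capza2+/- nuclei and 1747 CPM (1559 to 1950) in 26 WT nuclei. At least 1 Grin2b UMI was present in 90.16% of Capza2+/- and 80.77% of WT nuclei of this cluster, against 35.76% of Capza2+/- and 35.53% of WT microglia-like nuclei. Grin1 was at 284.4 CPM in Capza2+/- and 215.6 CPM in WT nuclei of this cluster. The mean doublet score of the cluster was 2.118 times that of all nuclei, and the part of neuronal RNA in these values was not tested.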
